A study of Rattus norvegicus with 71 samples.

Results

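The aorta of the F344xBN rat, a hybrid of the Fischer344 and Brown Norway strains (FBN below), was compared between 24 and 15 months of age. The arrays were chosen by their label alone, thoracic artery of F344xBN rats at these ages, which gave 6 arrays at 24 months and 6 at 15 months, 12 of the 71 arrays of the series. The study took aortas and mesenteric arteries of FBN rats and of the Brown Norway strain (BN) at 6, 15 and 24 months. Its title relates expression in these vessels to the vascular pathology of age. Of the other groups, the 6 FBN aorta arrays of 6 months helped to estimate the spread, and 17 BN aorta arrays (6 at 6 months, 5 at 15 months and 6 at 24 months) were used for comparison. No agent or transgene is given for any group. The treatment text, which is the same for all arrays, cites a collateral artery model made by occluding an adjacent artery and does not say which vessels came from it. Arrays are numbered within a group in the order of deposition, and the labels do not state that each array is a separate animal, so p-values here measure the spread between arrays.

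The wall of the thoracic aorta is built of contractile smooth muscle cells between sheets of elastin, lined by endothelium and wrapped in an adventitia of fibroblasts. Around it lies fat, which at the thoracic aorta of rodents is of the brown, heat-producing kind marked by the mitochondrial uncoupler Ucp1. Ageing of large arteries is known for stiffening, matrix remodelling and changes of smooth muscle phenotype.

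Signals are the deposited MAS5 values, linear and scaled to the same trimmed mean in each array. Array medians ranged from 278.9 to 308.0 over the FBN aorta arrays. The tests ran on 15521 probe sets with a mean signal of at least 282.0, in which 9234 genes had at least 1 probe set of their own. Differences are log2 signals at 24 minus 15 months at equal tissue mass ± standard error, from limma's moderated test over 18 FBN aorta arrays. A gene is said to rise or fall where the Benjamini-Hochberg adjusted p was under 0.05. With 6 arrays a group the number of arrays limits the precision. A score of 50 strain markers, taken from the 6-month aorta arrays, put 6 of 6 FBN arrays of 15 months and 6 of 6 of 24 months on the FBN side, and 0 of the 11 BN arrays of these ages. Correlations of log2 signals between arrays ranged from 0.76 to 0.98 at 15 months and from 0.81 to 0.98 at 24 months.

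The tissue was aorta with a variable share of brown fat, as its markers showed at both ages. Ucp1 had signals from 27430 (median 43770) to 100400 at 15 months and from 39410 (median 60250) to 117800 at 24 months. Myh11, the smooth muscle myosin heavy chain, ran from 20020 (median 45070) to 51830 and from 30000 (median 56120) to 61450. Both genes therefore overlapped between the ages, and each varied more within an age than between the medians. Of the other marker lists, 14 endothelial genes, 17 macrophage genes and 11 fibroblast genes were measured, while only 3 mast cell genes, 1 T and NK cell gene and 0 B and plasma cell genes reached the signal minimum. In whole tissue, fewer cells of a type and less RNA per cell cannot be told apart.

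Few genes separated the ages. Of 15521 probe sets 2 passed (0.0129%), 0 higher and 2 lower at 24 months. Before adjustment 1041 (6.71%) had a p under 0.05, 485 higher and 556 lower, and the median difference over the tested probe sets was 0.01. In 103 probe sets (0.664%) the signals of the 2 ages did not overlap, 52 (0.335%) above and 51 (0.329%) below at 24 months. When each gene was read only by its brightest probe set, 0 of 9234 genes passed and 302 had higher and 205 lower signals at an unadjusted p under 0.05. The count moved with the arrays and the covariate. It was 26, all lower, without array 1 of 15 months and 19 (3 higher, 16 lower) without array 1 of 24 months, and 41 (9 higher, 32 lower) when the brown adipocyte score, the mean log2 signal of 10 brown fat genes, stood in for tissue mass. With array weights it was 127 (30 higher, 97 lower), and with hybridisation spike-in signal as a further covariate it was 0.

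The only named gene that passed was Peli2, a Pellino ubiquitin ligase of Toll-like and interleukin-1 receptor signalling. Its probe set 1390942_at had signals from 924.4 (median 1174) to 1391 at 15 months and from 353.3 (median 449.1) to 552.4 at 24 months. The ages did not overlap, and the 6-month arrays, from 767.5 (median 958.6) to 1386, lay with those of 15 months. The mean signal was 1168 ± 178.2 (SD, n = 6) at 15 months and 446.6 ± 64.5 (SD, n = 6) at 24 months, a fall of 1.37 ± 0.16 on the log2 scale (adjusted p = 0.0021). It passed in 13 of 14 other settings that tested it and in 12 of 12 fits that left out an array. The other probe set that passed, 1394727_at, carries no gene symbol in the platform table. It ran from 657.6 (median 1158) to 1436 at 15 months and from 301.2 (median 380.3) to 513.8 at 24 months. Its difference was -1.39 ± 0.21 (adjusted p = 0.0353), without overlap. It passed in 10 of 14 other settings and in 5 of 12 fits that left out an array, with an adjusted p of up to 0.253.

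The next 14 genes in order of p among those lower at 24 months did not pass, with adjusted p between 0.0504 and 0.124. With Peli2 they make 15 genes, of which 15 passed with array weights, 15 with the brown adipocyte score, 12 in each of the fits over all aorta arrays and 0 with the spike-in covariate. Clic4, an intracellular chloride channel protein, had signals from 2468 (median 3936) to 4682 at 15 months and from 1631 (median 1795) to 2004 at 24 months (probe set 1377765_at), without overlap, and a difference of -1.02 ± 0.17 (adjusted p = 0.0532). The closest to the threshold was Irf2bp2, a partner of an interferon regulatory factor, at -0.57 ± 0.09 (adjusted p = 0.0504). Nedd4, a ubiquitin ligase of membrane proteins, ran from 2737 (median 4228) to 5668 at 15 months and from 1131 (median 1601) to 2048 at 24 months (1395157_at), with a difference of -1.39 ± 0.27 (adjusted p = 0.0891). The widest difference was that of Map3k20, a stress-activated kinase, from 502.7 (median 1233) to 1556 against 209.2 (median 268.6) to 479.8 (1374974_at), -1.79 ± 0.34 (adjusted p = 0.0891). Each of these 4 had the ages apart, and so had 10 of the 15 genes in all, Peli2 included. Over all 15521 tested probe sets 51 (0.329%) were apart with 24 months below. The 15 genes were picked by p on the same arrays, so their count describes them and is not separate support.

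The kinases and signal carriers among the rest were Dyrk2 (-1.18 ± 0.21), Gnaq, the alpha subunit of the Gq protein that couples vasoconstrictor receptors to contraction (-1.21 ± 0.22), and the adaptor Sh2b1 (-0.67 ± 0.13). Atp2b4, a calcium pump of the plasma membrane, had -1.54 ± 0.31, its signals running from 242.5 (median 616.2) to 1007 at 15 months and from 107.8 (median 178.6) to 199.2 at 24 months. Cast, the calpain inhibitor calpastatin (-1.40 ± 0.25), Jam2, a junctional adhesion molecule (-1.42 ± 0.26), and Arpp19, an inhibitor of protein phosphatase 2A (-0.46 ± 0.09), are proteins of other kinds. Zbtb20 (-1.50 ± 0.31) and Nfia (-0.62 ± 0.13) are transcription factors and Zfp106 (-1.59 ± 0.31) is a zinc finger protein. Gnaq, Jam2, Sh2b1, Zfp106 and Nfia had overlapping ages.

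In most of these genes another probe set of the same gene was brighter and differed less. Of the 15 genes 13 had several tested probe sets, and in 12 of those the probe set named above was not the brightest. Of these 12 the brightest had a difference above 0 in 8, and 0 of the 12 passed. Map3k20 was read by 1372606_at at 15210 against 16700 (difference 0.41, adjusted p = 0.774). Nedd4 was read by 1371314_at at 27410 against 32400 (difference 0.33, adjusted p = 0.607) and Clic4 by 1388759_at at 27020 against 30050 (difference 0.23, adjusted p = 0.768). The brighter Peli2 probe set, 1389592_at, had means of 1994 and 2303 and a difference of 0.30 (adjusted p = 0.768). Other probe sets of some genes were lower too. A further Clic4 set, 1387420_at, had means of 2586 and 1142 with the ages apart (difference -1.22, adjusted p = 0.0887), and 1393324_at of Jam2 had 669.1 and 352.6 (-1.24, adjusted p = 0.179). Of the tested sets 4 of 4 were lower for Dyrk2 and for Jam2, 3 of 4 for Clic4 and 2 of 3 for Cast, but 1 of 3 for Map3k20 and 2 of 6 for Zbtb20. The files do not say which transcripts each probe set reads.

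**Figure D1:**
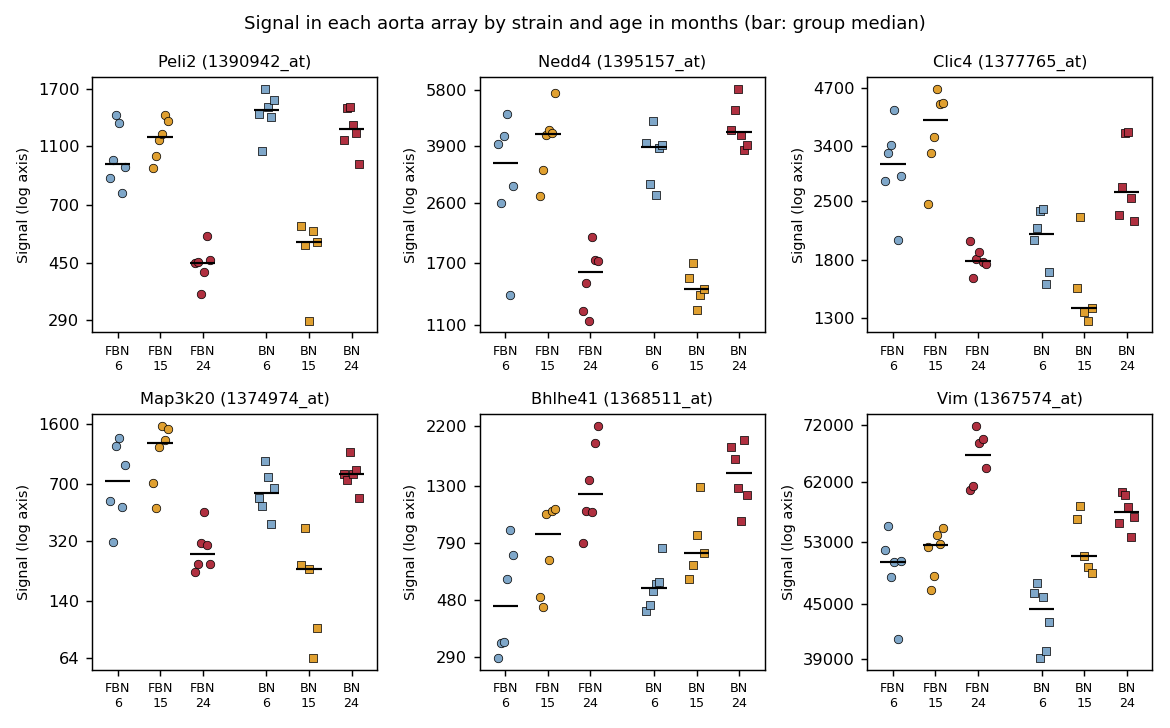
Signal (log axis) of 6 named genes in each aorta array, by strain and age in months, with a bar at the group median. On the probe sets named in the text, Peli2, Nedd4, Clic4 and Map3k20 were lower at 24 than at 15 months in FBN aorta without overlap. The same probe sets were higher at 24 than at 15 months in BN aorta, while Bhlhe41 and Vim had higher medians at 24 months in both strains.

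By the same probe sets, the 15 genes were not lower at 24 months in the BN aorta, which shares no array with the FBN aorta. In 15 of 15 the difference of 24 minus 15 months was above 0 in BN, and 9 of the 15 rose there, against 140 of all tested probe sets (0.902%). Nfia, Arpp19 and Irf2bp2 were near 0 in BN, at 0.01, 0.10 and 0.13. Gnaq, Zfp106 and Atp2b4 had 0.51, 0.69 and 0.93 there and did not pass. Peli2 rose by 1.40 ± 0.16 in BN aorta (adjusted p = 0.000236), from a median of 526.0 at 15 months to 1250 at 24 months. Nedd4 rose by 1.65 ± 0.14 (adjusted p = 7.896e-06), from 1416 to 4283. Map3k20 rose by 2.33 ± 0.34 (adjusted p = 0.00206), from 217.1 to 807.2, and Zbtb20, Dyrk2, Cast, Clic4, Jam2 and Sh2b1 rose as well. The brightest probe sets differed less in BN, at 0.04 for Peli2, -0.03 for Nedd4, 0.17 for Map3k20 and 0.08 for Clic4. Of the further sets, 1387420_at of Clic4 had 0.94 in BN and 1393324_at of Jam2 had 0.67. In BN aorta the 15-month arrays were the low ones, since the difference of 15 minus 6 months was below 0 in 15 of the 15 genes. In FBN aorta it was the 24-month arrays that were low.

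The difference between the strains' changes was tested over 35 aorta arrays with a mass slope for each strain. It passed in 188 probe sets (1.21%), 31 (0.2%) with the change higher in FBN and 157 (1.01%) with it lower. The 5 genes with the smallest p were Peli2 (-2.77 ± 0.23, adjusted p = 7.445e-09), Nedd4 (-3.04 ± 0.30), Dyrk2 (-2.40 ± 0.30), Map3k20 (-4.12 ± 0.52) and Jam2 (-2.29 ± 0.31). Among the 15 genes with lower signals 14 differed between strains, all but Irf2bp2 (adjusted p = 0.0789), and among the 15 with higher signals 3 did. These genes were picked by the FBN side of the contrast, so these counts describe them and are not separate support. All these values are of the named probe sets. On the brightest probe sets of Peli2, Nedd4, Dyrk2, Map3k20 and Jam2 the strain difference did not pass (limma, adjusted p from 0.233 to 0.990). Of the further sets, 1387420_at of Clic4 (-2.16) and 1393324_at of Jam2 (-1.91) passed.

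**Figure D2:**
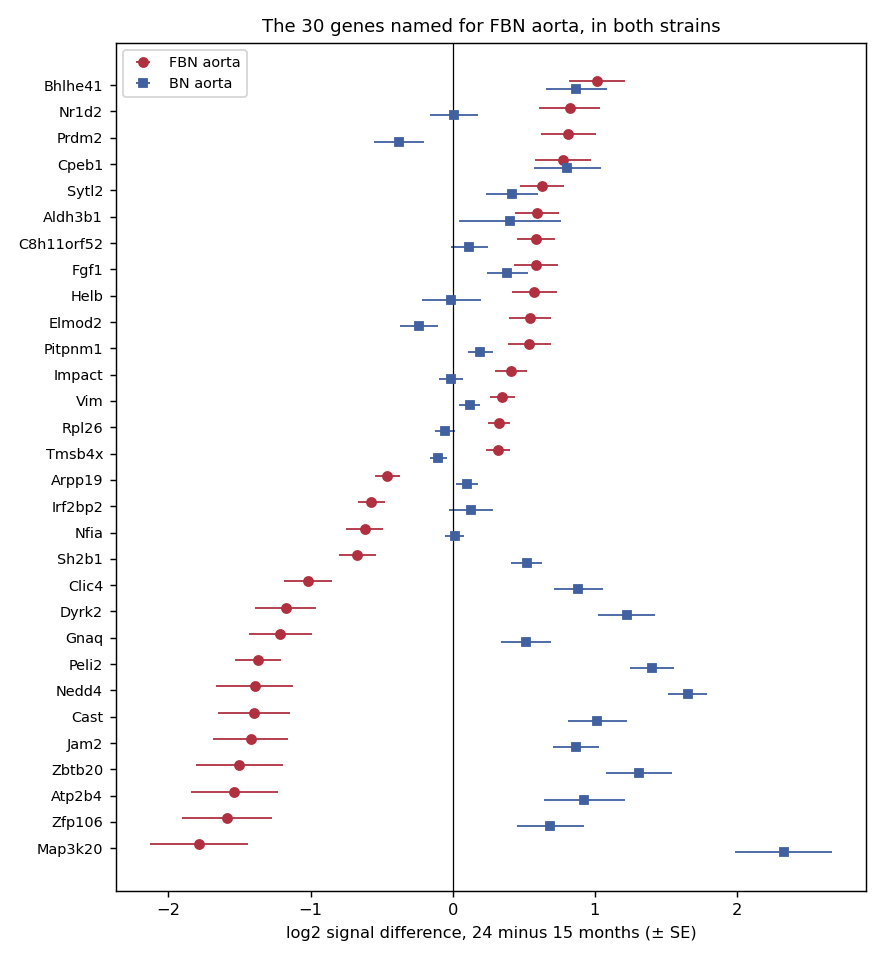
Log2 signal difference of 24 minus 15 months (± SE) of the 30 named genes, each by its named probe set, in FBN aorta (circles) and BN aorta (squares). The 15 genes lower in FBN, from Arpp19 at -0.46 to Map3k20 at -1.79, have values above 0 in BN, whereas 9 of the 15 genes higher in FBN have values above 0 in BN too.

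Measures of the arrays themselves moved with the same groups. The hybridisation spike-ins, bacterial and phage transcripts added just before hybridisation, had mean log2 signals from 12.57 (median 12.72) to 12.97 at 15 months and from 13.05 (median 13.28) to 13.35 at 24 months. These did not overlap (exact permutation test, two-sided p = 0.00216, the smallest it can give; 0.013 adjusted over 6 measures). The Actb signal at the transcript's end divided by that at its start, a ratio that rises as RNA or its copies are shorter, averaged 2.02 ± 0.38 (SD, n = 6) at 15 months and 2.57 ± 0.20 (SD, n = 6) at 24 months (exact permutation p = 0.013, 0.039 adjusted). Array 1 of 15 months stood apart with a ratio of 2.78, where the other 5 ran from 1.69 to 1.95 and the 24-month arrays from 2.35 to 2.81. Tissue mass, the array median, the poly-A spike-ins and the Gapdh ratio had adjusted p-values of 0.693, 0.693, 0.121 and 0.507.

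In BN aorta both measures ran the other way, with spike-in means of 13.48 at 15 months and 12.98 at 24 months and Actb ratios of 2.80 and 2.31. Over the 6 aorta groups the 15 genes with lower signals had their lowest median in FBN at 24 months in 10 cases and in BN at 15 months in 5 cases, the groups with the highest spike-in means. The genes were picked for lower signals in FBN at 24 months, so the 10 cases follow in part from that choice and are not separate support. With the spike-in signal as a further covariate Peli2 kept a difference of -1.14 and its adjusted p was 0.0864, and 0 probe sets passed. With the Actb ratio instead 1 probe set passed, Peli2, and the median of the 15 genes was -0.96 in place of -1.37. In both fits 15 of the 15 differences stayed below 0. In FBN the spike-in signals of the ages did not overlap, so age and this measure cannot be told apart here. What part these measures have in the lower signals was not tested further.

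**Figure D3:**
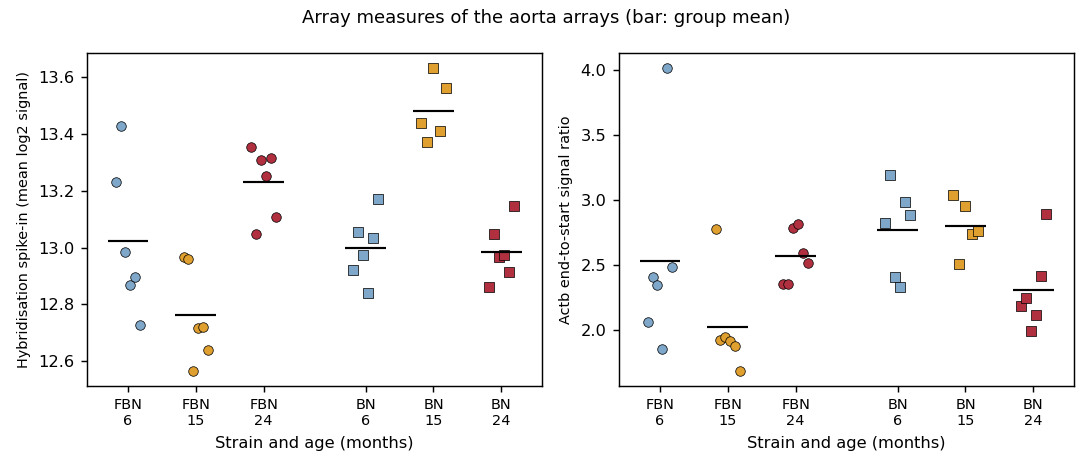
Mean log2 signal of the hybridisation spike-ins and the Actb end-to-start ratio in each aorta array, by strain and age in months, with a bar at the group mean. In FBN both means are higher at 24 than at 15 months (spike-ins 13.23 and 12.76), and in BN both are lower (12.98 and 13.48).

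Among genes with higher signals at 24 months none passed, so the 15 with the smallest p are given as values. Of these 15, 9 passed with array weights and 5 with the brown adipocyte score. First came Bhlhe41, a repressor of the circadian clock, from 448.9 (median 849.5) to 1061 at 15 months and from 785.8 (median 1207) to 2195 at 24 months, a difference of 1.02 ± 0.20 (adjusted p = 0.0891) with overlapping ages. It rose in BN aorta (0.87 ± 0.22, adjusted p = 0.0494). Vim, the intermediate filament vimentin of smooth muscle cells and fibroblasts, ran from 46680 (median 52510) to 54960 and from 60610 (median 66430) to 71740. The ages did not overlap, and the difference was 0.35 ± 0.09 (adjusted p = 0.255). Rpl26, a ribosomal protein, was also apart, from 46550 (median 51390) to 55110 against 59680 (median 63180) to 67500, with a difference of 0.32 ± 0.08 (adjusted p = 0.219). After quantile normalization the differences of Vim and Rpl26 were smaller, at 0.13 each. The DNA helicase Helb was the third without overlap, at 0.57 ± 0.16 (adjusted p = 0.324). Prdm2, a histone methyltransferase, went from a mean of 439.2 ± 87.6 to 776.2 ± 209.5 (SD, n = 6 each) on 1373712_at. The difference was 0.81 ± 0.19 (adjusted p = 0.206), and it was not higher in BN (-0.38 ± 0.18). Other tested probe sets of Prdm2 had differences of 0.32 (1389104_s_at) and -0.06 (1370639_at).

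The remaining 10 lay between 0.32 and 0.82 with adjusted p from 0.179 to 0.346. They included the actin-sequestering peptide Tmsb4x (0.32 ± 0.08), the growth factor Fgf1 (0.58 ± 0.16), the Rab27 effector Sytl2 (0.63 ± 0.15), Impact, an inhibitor of the kinase Gcn2 (0.41 ± 0.11), and C8h11orf52 (0.59 ± 0.13). After quantile normalization Tmsb4x had 0.14. Aldh3b1, an aldehyde dehydrogenase, Elmod2 and the phosphatidylinositol transfer protein Pitpnm1 had 0.59, 0.54 and 0.54. The other tested probe set had -0.26 for Elmod2, -0.27 for Impact and 0.19 for Fgf1. Cpeb1, which binds the 3' ends of mRNAs and controls their translation, ran from 254.8 (median 495.0) to 647.1 and from 457.0 (median 746.4) to 982.1, with 6-month arrays from 183.1 (median 240.0) to 251.5. Its difference was 0.78 ± 0.19 (adjusted p = 0.257) in FBN and 0.81 ± 0.23 in BN (adjusted p = 0.0872). Each later age overlapped the one before except at 15 against 6 months.

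Of the genes that earlier results of these data had named for age, Nnat, Tfpi, Agt and RT1-CE5 had overlapping ages. The dimmest tested probe set of Dst did not. Nnat, a small membrane proteolipid, had 3873 (median 6614) to 10880 at 15 months and 8248 (median 9243) to 13290 at 24 months, with 1239 (median 1580) to 3881 at 6 months. The difference was 0.52 ± 0.27 (adjusted p = 0.767). Tfpi, which restrains clotting begun by tissue factor, ran from 717.0 (median 1219) to 4711 and from 1790 (median 2891) to 10570 (1389780_at; 0.93 ± 0.40, adjusted p = 0.709), while in BN aorta it rose by 1.80 ± 0.22. Agt, the precursor of the vasoconstrictor angiotensin, ran from 601.3 (median 1945) to 5535 and from 385.5 (median 744.0) to 4109, a difference of -1.49 ± 0.40 (adjusted p = 0.323). Its 6-month arrays ran from 3241 (median 5240) to 18900. Dst, a linker of the cytoskeleton, differed by -1.54 ± 0.40 on its dimmest tested probe set (1397469_at, adjusted p = 0.295), without overlap. Its brightest, 1398598_at, had means of 15580 and 19050 (0.59 ± 0.34), and 1395274_at had -0.13 ± 0.40, both with overlap. The class I histocompatibility gene RT1-CE5 had 0.12 ± 0.23, a direction that turned with array weights or a spike-in covariate.

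The circadian clock runs in the vessel wall as a loop in which Bmal1 and Clock drive the Per, Cry, Nr1d and Dbp families, which peak at another time of day and feed back on them. The hour of tissue collection is not given in the labels. Of 19 clock genes tested 0 passed, and 8 were higher and 2 lower at an unadjusted p under 0.05. Over all 9234 tested genes 302 were higher and 205 lower at that p. The list median was 0.20 against 0.02 over all tested genes. By value 13 of the 19 were higher and 6 lower. Among the members with an unadjusted p under 0.05, Dbp had 1019 at 15 and 2751 at 24 months (1.31 ± 0.50), Per3 had 865.5 and 1476 (1.09 ± 0.42) and Per2 had 2929 and 4982 (0.68 ± 0.27). Nr1d2, a repressor of Bmal1, had 2950 and 4729 on its brighter probe set (0.80 ± 0.23) and 1856 and 2908 on the other (0.82 ± 0.21). Tef and Hlf, relatives of Dbp, had 0.50 ± 0.17 and 0.43 ± 0.19, and Per1 had 0.44 ± 0.20. Bmal1 itself went the other way, from 354.1 (median 978.7) to 1382 at 15 months and from 98.8 (median 365.9) to 1187 at 24 months (-1.31 ± 0.48), and so did Nfil3, the repressor of the Dbp family's sites (-0.48 ± 0.22). Of the other members, Nr1d1 (0.43 ± 0.30), Cry2 (0.20 ± 0.16) and Bhlhe40 (0.11 ± 0.53) were among those above 0, not all of which are named here. Npas2 (-0.65 ± 0.35), Rora (-0.29 ± 0.25), Cry1 (-0.21 ± 0.25) and Clock (-0.17 ± 0.12) were below it. The adjusted p of the genes with an unadjusted p under 0.05, Bhlhe41 aside, lay between 0.295 and 0.73, and the ages overlapped in each of them. In BN aorta the differences of Dbp, Per3, Nr1d2 and Bmal1 were 0.16, 0.06, -0.02 and -0.31.

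The 3 clock promoters shown are examples that hold an element the loop is known to work through. Each runs from 250 bases before to 50 after the annotated start in RefSeq (GRCr8). The E-box CACGTG is the site of Bmal1 and Clock, and TAGGTCA is the core of the site that Nr1d1, Nr1d2 and Rora share. Both strands were searched and matches are in capitals.
Bhlhe41, chr4:180569306-180569605, minus strand: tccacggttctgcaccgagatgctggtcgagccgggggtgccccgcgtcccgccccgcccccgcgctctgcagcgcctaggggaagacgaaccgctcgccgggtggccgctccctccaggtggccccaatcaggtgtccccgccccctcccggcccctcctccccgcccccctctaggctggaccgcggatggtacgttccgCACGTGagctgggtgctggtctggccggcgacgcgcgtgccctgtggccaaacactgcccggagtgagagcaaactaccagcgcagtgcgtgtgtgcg
Tef, chr7:115206577-115206876, plus strand: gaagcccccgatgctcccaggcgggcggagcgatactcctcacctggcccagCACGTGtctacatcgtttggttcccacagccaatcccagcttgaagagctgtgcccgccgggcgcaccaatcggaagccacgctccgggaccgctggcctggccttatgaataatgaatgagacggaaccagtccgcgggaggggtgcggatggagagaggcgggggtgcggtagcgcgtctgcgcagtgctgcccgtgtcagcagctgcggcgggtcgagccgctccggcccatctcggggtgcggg
Bmal1, chr1:176766078-176766377, plus strand: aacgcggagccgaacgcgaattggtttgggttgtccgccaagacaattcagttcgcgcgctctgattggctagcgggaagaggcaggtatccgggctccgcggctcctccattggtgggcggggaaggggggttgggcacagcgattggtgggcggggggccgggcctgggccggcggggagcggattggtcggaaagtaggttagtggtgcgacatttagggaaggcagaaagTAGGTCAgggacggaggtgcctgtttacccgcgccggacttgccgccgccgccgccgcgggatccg
The E-box begins 48 bases before the start in Bhlhe41 and 198 before it in Tef, and the TAGGTCA begins 16 bases before the start of Bmal1. Of the 17 of 21 listed clock genes with a promoter in the table, 4 held CACGTG and 1 held TAGGTCA. The windows of Bhlhe40, with 1 match, and Ciart, with 3, hold the E-box as well and are not shown. The windows of Dbp, Per1, Per2, Per3, Nr1d1 and Nr1d2 held 0 of either, which says only that these letters are not in them. Of 27457 promoters of this length 6.65% held the first and 2.6% the second. A match is a description of the letters and not a measured site.

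Contractile and proteoglycan genes mostly had higher values at 24 months and none passed, while elastic fibre genes and collagens had no direction that held without the mass covariate. In 16 of 16 contractile smooth muscle genes the value was higher, with a list median of 0.46, against 0.02 over all tested genes, and 0 passed. Mylk, the myosin light chain kinase, had 29340 and 35210 (0.26 ± 0.08, adjusted p = 0.52), the ages apart. Tagln, an actin-binding protein of smooth muscle, had 37550 and 48440 (0.53 ± 0.24, adjusted p = 0.74). Myh11 had 0.50 ± 0.25. Without the mass covariate the median was 0.28 and with the spike-in covariate it was 1.60. Of 15 proteoglycan and matricellular genes 14 had higher values (median 0.43), with Fn1, fibronectin, at 28030 and 36010 (0.55 ± 0.23) and Comp, a collagen-binding pentamer, at 1812 and 2720 (1.03 ± 0.47). Elastic fibre genes (11 of 15 higher, median 0.15) and collagens (9 of 17, median 0.02) were nearer to 0, and without the mass covariate the medians were -0.02 (6 higher, 9 lower) and -0.15 (5 higher, 12 lower). Col4a1 of the basement membrane had 15040 and 12290 (-0.39 ± 0.16, adjusted p = 0.676). Mgp, an inhibitor of calcification, had 47980 and 59750 (0.36 ± 0.13, adjusted p = 0.596).

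Rpl26, given above, is not on the list of 49 ribosomal protein genes, of which 24 were tested. The tested genes had small differences of like size. In 24 of 24 the value was higher at 24 months, from 0.11 to 0.34 with a median of 0.22, 16 had an unadjusted p under 0.05, against 302 of all 9234 tested genes in that direction, and 0 passed. In 6 of them (Rpl5, Rps6, Rpl3, Rpl7, Rpl6 and Rpl22) the ages did not overlap, against 29 of the 9234 with 24 months above. Rpl5 had 36470 and 45550 (0.34 ± 0.10, adjusted p = 0.384). The 1552 brightest probe sets, where such genes lie, had a median of 0.07 with 60.3% higher, against 52.1% over all tested probe sets. After quantile normalization the ribosomal median was 0.13 and that of the brightest probe sets was 0.04.

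**Figure D4:**
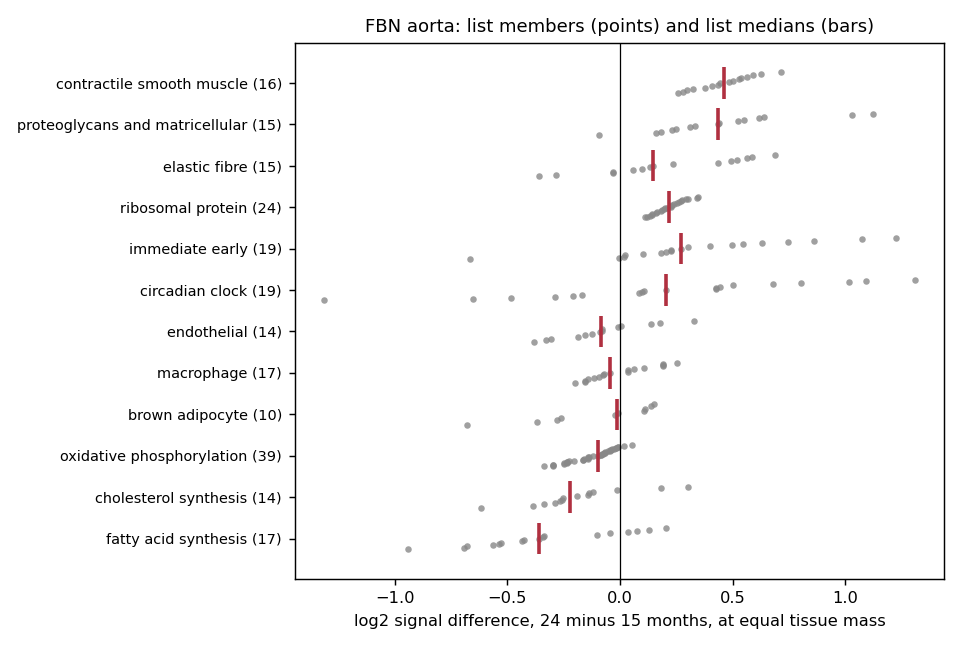
Log2 signal difference of 24 minus 15 months at equal tissue mass for the members of 12 gene lists in FBN aorta (points, with the number of genes in brackets) and the list medians (bars). Contractile (median 0.46) and proteoglycan genes (0.43) lie to the right of 0, ribosomal proteins sit close together at 0.22, and fatty acid synthesis (-0.36) lies to the left.

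The direction of the metabolic lists depended on the mass covariate in part. Fatty acid synthesis had 13 of 17 genes with lower values (median -0.36), with Slc25a1, the mitochondrial citrate carrier, at 3782 and 2517 (-0.68 ± 0.30, adjusted p = 0.724). Without the mass covariate that median was -0.09 (6 higher, 11 lower). In BN aorta 10 of these 17 fell, against 67 of all 9234 tested genes, and the difference between strains was not tested for the list. Cholesterol synthesis had 12 of 14 lower (median -0.22) and oxidative phosphorylation 37 of 39 lower (median -0.10). Without the mass covariate these medians were -0.15 and 0.13, so the direction of the second rests on that choice. Fatty acid oxidation had 9 genes higher and 10 lower (median -0.02), and 18 of 19 higher without the covariate (median 0.31). Its member Acadsb, which oxidises branched short-chain acids, had 716.0 and 317.0 (-1.44 ± 0.31, adjusted p = 0.156). Brown adipocyte genes had a median of -0.01 and general adipocyte genes of 0.04 at equal mass, and 0.21 and 0.33 without the covariate.

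Immune and stress genes did not separate the ages. Of 17 macrophage genes 8 were higher and 9 lower (median -0.05) with 0 at an unadjusted p under 0.05. Interferon-stimulated genes had 15 of 18 higher (median 0.21), with Psmb8 of the immunoproteasome at 947.8 and 1296 (0.44 ± 0.15), while Bst2, which tethers viruses, had 5711 and 4185 (-0.52 ± 0.14, adjusted p = 0.295). The medians of Bst2 were 4260 and 4300, and its highest 15-month array had 9973. Of 19 immediate early genes 17 were higher (median 0.27), among them the stress genes Atf3 at 2037 and 3235 (1.22 ± 0.53) and Dusp1 at 18350 and 25040 (0.50 ± 0.20). Ptgs2, the inducible cyclooxygenase, had 5824 and 12500 (1.74 ± 0.72, adjusted p = 0.706). Genes of senescence and DNA damage had a median of -0.02, and Igfbp7, a protein secreted by senescent cells, had 47640 and 57510 (0.33 ± 0.12, adjusted p = 0.638).

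Regulators of tone and growth held single genes at an unadjusted p under 0.05. Nos3, which makes nitric oxide in endothelium, had 1225 and 1041 (-0.38 ± 0.18) and Eng, a TGF-beta coreceptor of the same cells, 1754 and 1522 (-0.33 ± 0.15), with an endothelial median of -0.08. Without the mass covariate that median was 0.01 (8 higher, 6 lower), so its direction rests on that choice. Pde5a, which degrades the cyclic GMP that nitric oxide raises, had 761.6 and 289.8 (-1.10 ± 0.29, adjusted p = 0.308). Tgfb1 had 864.5 and 616.1 (-0.42 ± 0.15), and the BMP targets Id2 and Id3 had 0.63 ± 0.26 and 0.35 ± 0.16. F2r, the thrombin receptor, had 5404 and 7003 (0.42 ± 0.12, adjusted p = 0.367) and Ctnnb1, beta-catenin, 22730 and 26480 (0.21 ± 0.08, adjusted p = 0.651), both with the ages apart.

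Tissue mass divided the arrays far more than age did. The labels give 6.0 to 29.8 mg at 15 months and 9.0 to 29.8 mg at 24 months, with means of 16.23 ± 10.01 and 18.55 ± 7.46 (SD, n = 6 each). Per log2 unit of mass, at equal age, 8183 probe sets changed (52.7%), 3707 (23.9%) up and 4476 (28.8%) down. Fat genes rose with mass. All 14 general adipocyte genes tested rose, as did 9 of 10 brown adipocyte genes (Ucp1 by 0.76 ± 0.12, and Prdm16 fell), 39 of 39 genes of oxidative phosphorylation (median slope 0.73) and 18 of 19 of fatty acid oxidation. Of contractile genes 15 of 16 fell (median slope -0.69), as did 14 of 15 proteoglycan, 13 of 15 elastic fibre and 12 of 17 collagen genes. With each gene read by its probe set of smallest p, the steepest rises were those of Acacb, which controls fatty acid entry to mitochondria (1.84 ± 0.45), Uqcrc2 of respiratory complex III on 1382280_at (1.83 ± 0.49), Crocc (1.74 ± 0.36), Cyth1 (1.61 ± 0.35) and the lipogenic transcription factor Mlxipl (1.55 ± 0.26). The steepest falls were those of Vxn (-1.77 ± 0.46), Gpsm2 (-1.57 ± 0.33), C1qtnf12 (-1.56 ± 0.27), Zfpm2 (-1.51 ± 0.30) and Emilin1, an elastin-associated glycoprotein (-1.50 ± 0.38).

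The spread was large in single arrays. Mlxipl ran from 303.7 (median 614.0) to 4050 at 15 months and from 528.7 (median 702.2) to 2704 at 24 months, with the ages overlapping. The brown adipocyte score was highest in arrays 2 and 1 of 15 months, 13.14 and 12.67 at 27.7 and 29.8 mg, and in array 1 of 24 months, 12.97 at 22.0 mg. Mass and score did not rank the 24-month arrays alike, since array 4, the heaviest at 29.8 mg, had a score of 12.20. The contractile score was lowest in array 2 of 15 months, 12.65, and array 1 of 24 months, 13.16, where the other 24-month arrays had 14.23 to 14.75. Hybridisation spike-in signal was higher in the heavier arrays of 15 months too (12.97 and 12.96 in arrays 1 and 2, against 12.57 to 12.72 in the rest). With it as a covariate beside mass 0 probe sets passed for mass.

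**Figure D5:**
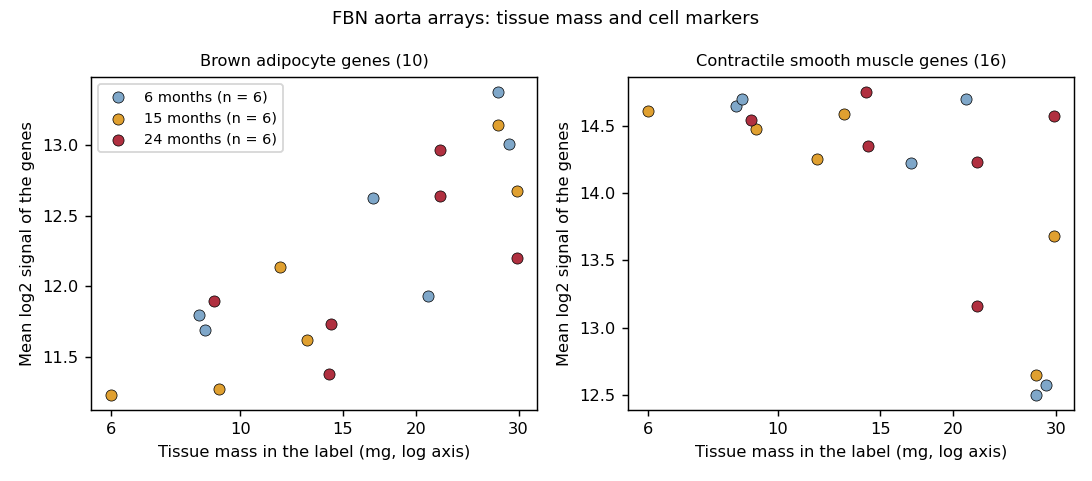
Mean log2 signal of 10 brown adipocyte genes (left) and 16 contractile smooth muscle genes (right) against the labelled tissue mass (mg, log axis) in the 18 FBN aorta arrays, coloured by age. The brown adipocyte score runs from 11.23 to 13.37 and is higher in heavier samples, the contractile score is lower in them, and the 3 ages mix in both panels.

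Genes chosen in the BN aorta were read in FBN aorta, with no array in common. BN aorta had 259 changed probe sets between 15 and 24 months (1.67%) and 1186 between 6 and 24 months (7.64%). Of the 660 (4.25%) that rose in BN from 6 to 24 months, 533 (80.8%) had higher values in FBN at 24 than at 15 months (median 0.19), and of the 526 (3.39%) that fell 424 had lower values (19.4% higher, median -0.18), where 52.1% of all tested probe sets were higher. The BN changes from 15 to 24 months read otherwise. Of the 140 that rose in BN 46 were higher in FBN (32.9%, median -0.17), and of the 119 (0.767%) that fell 29 were higher (24.4%, median -0.18). In each of the 4 sets 0 passed in FBN in that direction. The BN sets share their 24-month arrays with each other, so they are given side by side. For comparison within FBN, which shares arrays with the main contrast, 2 probe sets rose and 0 fell from 6 to 15 months (0.0129%), and 61 rose (0.393%) and 23 fell (0.148%) from 6 to 24 months (0.541% in all).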

How the data were processed

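RNA was measured on Affymetrix rat arrays. The deposited values are linear intensity, MAS5 signal by the authors, per the submitters' processing notes, which name GCOS and MAS5. The values fit a scaling of every array to one target, since trimmed means (2% from each end) ran from 1000.34 to 1000.43. Chip-level calls of presence are not used here. Such a scaling removes differences in total RNA.

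Here log2 of the signal was taken with no offset. Of 31099 probe sets 57 controls were left out, and 15521 with a mean log2 of at least 8.139 over the 18 FBN aorta arrays (signal 282.0) were tested. Of the probe sets 20826 have 1 gene symbol in the platform table, 436 several and 9780 none. limma 3.58.1 in R 4.3.3 (statmod 1.5.0) fitted 3 age means and log2 tissue mass, with 14 residual degrees of freedom and moderated tests with trend and robust settings, adjusted by Benjamini-Hochberg. BN aorta was fitted likewise, and the strain difference over 35 arrays with a mass slope and array weights per strain. Before use the fit was run on simulated data with 200 altered probe sets, as a check of the code. The simulated noise was independent between probe sets, so this run does not measure error rates in these arrays. Python 3.11.15 with pandas 2.3.3 and matplotlib 3.10.9 did the rest.

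Named genes are, in each direction, those that passed and then those of smallest p up to 15; up to 4 members of smallest p in each of 42 lists (912 genes); the 5 genes of steepest rise and fall with mass; the 5 of smallest p for the strain difference; and 10 that earlier results named. The members and lists were chosen with earlier results of these data known. List genes are described here mainly where the unadjusted p was under 0.05 or the ages did not overlap. Tissue markers such as Myh11 and most of the other clock members are given beside them.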

Additional observations from a re-analysis of the deposited data

Results flagged for a closer look

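Some genes and array measures had 1 array far from the other 5 of its age, judged by its gap to the nearest array as a share of the group's range. Dixon's 95% critical value was used, which chance passes in about 1 in 20 groups. It was passed in 23 of 168 groups of arrays, over 84 genes. At 15 months array 2 (27.7 mg) was the lone low array for Helb (0.665), Mgp (0.713), Tagln (0.74), Itga7 (0.688), Timp3 (0.662), Igfbp7 (0.631) and Tgfb1 (0.634). It was the lone high array for Acadsb (0.742), with a signal of 1323 against 509.3 to 651.5. Array 1 was the lone low array for Zfp106 (0.76). Array 1 was also apart in the Gapdh end-to-start ratio (0.842), 2.31 against 1.17 to 1.35, and in that of Actb (0.765).

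At 24 months array 1 (22.0 mg) was the lone low array for Sytl2 (0.66), Mgp (0.636), Comp (0.655), Tagln (0.776), Itga7 (0.655), Timp3 (0.659), Lamp1 (0.782), Becn1 (0.701), Fn1 (0.771), Igfbp7 (0.726) and Lrrc39 (0.63). It was low in the contractile score (0.674) too, and the lone high array for Col4a1 (0.652). Array 5 stood apart for Atp2b4 (0.635) and array 6 for Psmb8 (0.764).

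The change from 15 to 24 months differed between strains in 188 probe sets by limma's test of the difference, adjusted p under 0.05. Values are FBN minus BN on the log2 scale, each gene read by its named probe set. Of the genes named, those with the change lower in FBN were Map3k20 (-4.116), 1394727_at (-3.938), Nedd4 (-3.043), Dst (-2.846), Zbtb20 (-2.812), Peli2 (-2.772), Pde5a (-2.536), Atp2b4 (-2.461), Cast (-2.416), Dyrk2 (-2.399), Jam2 (-2.29), Zfp106 (-2.277), Acadsb (-1.974), Clic4 (-1.898), Gnaq (-1.725), Tgfb1 (-1.23), Sh2b1 (-1.191), Nfia (-0.6339), Arpp19 (-0.5611) and the chromatin remodeller Smarca4 (-0.4654). It was higher in FBN for Prdm2 (1.192), Elmod2 (0.7788), Mylk (0.4724), Tmsb4x (0.4233) and Ctnnb1 (0.419).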

How the results depend on the processing

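The count for 24 against 15 months in FBN aorta was 2 (0 higher, 2 lower). It was 4 with mass in mg, 41 (9 higher, 32 lower) with the brown adipocyte score in place of mass, 1 with poly-A spike-ins added, 7 on the 12 arrays of these ages, 35 (2 higher, 33 lower) over all aorta arrays with no mass covariate, 19 (0 higher, 19 lower) over all aorta arrays with weights, 0 under a stricter filter on dim probe sets and 127 (30 higher, 97 lower) with array weights. With 2 covariates chosen after seeing the data it was 0 (hybridisation spike-ins) and 1 (Actb ratio). At limma's unadjusted p under 0.05 the 0 counts had 499 under the stricter filter and 4246 with the spike-ins. Leaving out an array gave 1 to 26: 26 without array 1 of 15 months, 19 without array 1 of 24 months, and 1 without arrays 3, 4, 5 or 6 of 15 months or 3, 5 or 6 of 24 months. For mass the count was 8183, 4904 on the 12 arrays, 4887 under the stricter filter, which tests fewer probe sets, and 0 with the spike-ins; leaving out an array gave 6398 to 8856. The BN count of 259 ran from 96 to 338 without an array, and was 128, 138, 127 and 96 without 15-month arrays 1, 3, 4 and 5 and 169, 142 and 164 without 24-month arrays 1, 3 and 4. The strain difference, 188, was 102 (8 higher, 94 lower) with no mass covariate and ran from 122 to 222 without an array, with 122 and 124 without FBN 24-month arrays 3 and 6. RT1-CE5 turned to -0.03385 with array weights, -0.185 with spike-ins and -0.002441 with the Actb ratio, and ran from -0.01084 (without array 4 of 24 months) to 0.2306 without an array. Over all named genes 2112 of 2235 age values kept direction and side of the threshold, 107 came to pass, 12 no longer passed and 4, those of RT1-CE5, turned. The cause of these shifts was not tested. No paired analysis was made, since an aorta is taken from a rat once and the labels link no arrays of different ages.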
